A study of Mus musculus with 167 samples.

Results

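The 10 mature miRNAs described here are known from neurons and glia: miR-124-3p, both arms of miR-9, miR-128-3p, miR-137-3p, miR-129-5p, miR-138-5p, miR-219a-2-3p, miR-338-3p and miR-383-5p. They were taken by name from the 1915 mature miRNAs counted in each table, and all 10 had a row in each of the 5 tissues. Sequencing libraries were made from lung, heart and brain homogenates and from white (WBC) and red blood cells (RBC) of mice exposed to whole thorax lung irradiation (WTLI, a single dose to the chest) or to sham irradiation. The animals were C3H mice (C3Hf/Sed/Kam, 7 irradiated and 8 sham, all female) at month 4 after exposure, and C57 mice (C57Bl/6, 5 irradiated, of which 4 were male, and 15 sham, of which 8 were male and 7 female) at month 6, so that strain and time after exposure cannot be told apart. All had been exposed as young adults and had survived to the study endpoint. Each label further bore 1 of the letters A and B, for which no explanation was given. C3H sham mice held 4 of each letter, C3H irradiated mice 3 A and 4 B, C57 sham mice 8 A and 7 B, and C57 irradiated mice 2 A, both male, and 3 B. Brain, lung, heart and RBC each had 35 libraries, 1 per animal, and WBC had 27 (5 C3H sham, 6 C3H irradiated, 11 C57 sham and 5 C57 irradiated).

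Library totals ran from 1794995 to 3966832 miRNA reads in brain, from 2024219 to 4582208 in lung, from 1944992 to 4784251 in heart, from 2354921 to 7865102 in WBC and from 2510857 to 4702286 in RBC. Levels are given as miRNA reads divided by the library total, times 1000000 (RPM). A count of 0 allows a level of up to 3 counts, which was 0.756 to 1.67 RPM in brain, 0.655 to 1.48 in lung and 0.627 to 1.54 in heart, for counting error only. The labels of heart and lung held against defining miRNAs: the heart muscle miRNA miR-208a-3p had a median of 3081 RPM in heart and 0 in brain, and the cilia-associated miR-34c-5p had a median of 5283 RPM in lung. The 2 blood fractions were not set apart in this way. In C3H sham mice the 5 miRNAs of a leukocyte list summed to a median of 28119 RPM in RBC and 20973 RPM in WBC, and the 4 of an erythrocyte list to 63580 and 40107 RPM. In C57 sham females the erythrocyte sum was higher in WBC (48102 RPM) than in RBC (38174 RPM). One heart library stood apart, that of C3H irradiated replicate 3, in which 4 miRNAs of cardiac muscle summed to 50690 RPM against 152407 to 246805 in the other irradiated C3H hearts.

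miRNAs are short RNAs that guide Argonaute proteins to messenger RNAs, mainly by pairing of the seed near their 5′ end, and lower the output of those messengers. miR-124 is the classic miRNA of differentiated neurons, and miR-9 is made in neural progenitors, neurons and astrocytes. miR-128, miR-129, miR-137, miR-138 and miR-383 are known from neurons, with miR-138 associated with dendrites and miR-137 and miR-128 with neuronal maturation and excitability. miR-219a and miR-338 promote the maturation of oligodendrocytes, the myelin-forming glia. The names of cell types stand for these known roles, since homogenates hold all cells of the tissue. In such bulk samples, fewer cells of a type and less RNA per cell cannot be told apart.

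Mature sequences were available in RefSeq for 7 of the 10, and are shown 5′ to 3′ because the seed (bases 2 to 8, in capitals) decides which messengers each can pair with.
mmu-miR-9-5p: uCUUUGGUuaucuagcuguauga
mmu-miR-9-3p: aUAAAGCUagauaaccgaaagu
mmu-miR-128-3p: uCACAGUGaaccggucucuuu
mmu-miR-137-3p: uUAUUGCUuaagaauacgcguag
mmu-miR-129-5p: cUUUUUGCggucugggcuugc
mmu-miR-138-5p: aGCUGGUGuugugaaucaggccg
mmu-miR-338-3p: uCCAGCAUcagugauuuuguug

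These 7 miRNAs had 7 different seeds, and none of the other names in the tables with a known sequence (1623 of 1915 names matched) had the same seed as any of them. Each arm of miR-9 has its own seed, so the arms are separate regulators made from the same hairpins. The sequences of miR-124-3p, miR-219a-2-3p and miR-383-5p were not among those used here.

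On the build GRCm38.p6 (RefSeq, GENCODE vM21 gene models), miR-9-5p was encoded at 3 places on the plus strand: chr3:88215613-88215635 in an intron of the noncoding gene Gm3764, chr7:79505279-79505301 in an intron of Mir9-3hg, and chr13:83738821-83738843 in an exon of C130071C03Rik. miR-9-3p lay in the same hairpins, at chr3:88215652-88215673, chr7:79505318-79505339 and chr13:83738858-83738879. miR-128-3p lay in an intron of R3hdm1 (chr1:128202404-128202424, plus strand) and in an intron of Arpp21 (chr9:112118644-112118664, minus strand). miR-129-5p lay in an intron of Mir670hg (chr2:94241419-94241439, minus strand) and in an exon of Gm3294 (chr6:29022624-29022644, plus strand). miR-138-5p lay in an exon of C78859 (chr8:94324312-94324334, plus strand) and in an exon of the pseudogene Gm47135 (chr9:122682898-122682920, plus strand). Reads of these miRNAs cannot be told apart by locus. miR-137-3p (chr3:118433901-118433923, plus strand, an exon of Gm26871) and miR-338-3p (chr11:120014781-120014802, minus strand, an intron of Aatk, which encodes a neuronal kinase) each had 1 locus.

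In brain the 10 miRNAs together held 16.4% ± 1.32 (SD, n = 35 libraries) of all miRNA reads, with a range from 13.1% to 19.2%. The group means were 16.2% in C3H sham, 16% in C3H irradiated, 16.5% in C57 sham and 16.5% in C57 irradiated brain. The same 10 miRNAs held on average 0.0411% of the reads in lung, 0.0779% in heart, 0.159% in WBC and 0.0432% in RBC.

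The members ranged over nearly 2 orders of magnitude in brain. miR-9-5p had a median of 74451 RPM (43234 to 103401) and was the 2nd most abundant of all miRNAs in brain by its median. miR-128-3p followed at 53287 RPM (40511 to 78603), at rank 4. miR-9-3p, the less used arm, had a median of 10615 RPM. miR-138-5p stood at 6590 RPM, the oligodendrocyte miRNAs miR-219a-2-3p and miR-338-3p at 5157 and 3705 RPM, and miR-124-3p at 3464 RPM. miR-137-3p (3202 RPM), miR-129-5p (2624 RPM) and miR-383-5p (1046 RPM, at rank 79) completed the order. Within single libraries miR-128-3p was above miR-9-3p, and miR-129-5p above miR-383-5p, in 35 of 35. miR-9-5p was above miR-128-3p in 29 of 35. Lower down the neighbours changed places: miR-338-3p was above miR-124-3p in 26 of 35 libraries, and miR-124-3p was above miR-137-3p in 20 of 35. RPM of different miRNAs compares reads, and ligation during library preparation can favour some sequences over others.

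**Figure D1:**
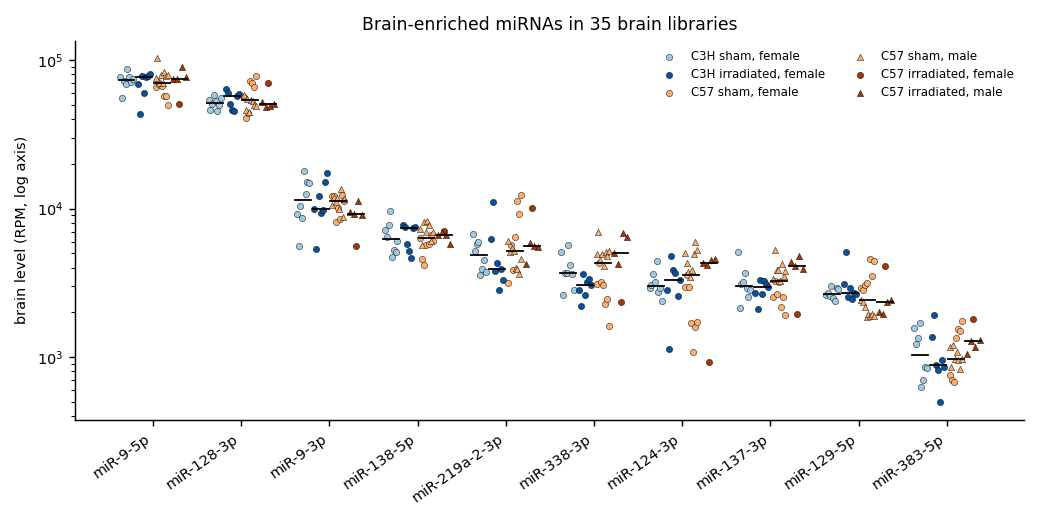
Level of each of the 10 miRNAs in the 35 brain libraries, in RPM on a log axis, coloured by strain and irradiation, with triangles for males and lines for group medians. The 4 groups lie over each other for each miRNA, and a few libraries stand low for miR-124-3p (down to 921 RPM) and high for miR-219a-2-3p (up to 12281 RPM).

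Each member was read mainly from 1 arm of its hairpin. The median level of miR-124-5p in brain was 89.1 RPM, and the ratio of miR-124-3p to it had a median of 37.8. The other arm stood at 81.7 RPM for miR-219a-5p, 11.6 RPM for miR-128-1-5p, 8.09 RPM for miR-383-3p, 3.24 RPM for miR-137-5p and 1.67 RPM for miR-338-5p. miR-128-2-5p was counted in 1 of the 35 brain libraries. For the miRNAs with more than 1 locus the other arms differ by locus. miR-129-2-3p, the other arm at the Mir129-2 hairpin, had a median of 112 RPM and miR-129-1-3p 6.10 RPM, a median ratio of 17.0, and miR-138-2-3p stood at 56.6 RPM against 3.97 RPM for miR-138-1-3p, a median ratio of 14.6. The ratio of miR-9-5p to miR-9-3p had a median of 6.79 in brain (4.46 to 9.96), 6.00 in lung, 15.2 in heart, 13.3 in WBC and 12 in RBC. The blood medians pool unlike groups: in WBC the ratio was 65.25 in C3H sham and 5.44 in C57 sham mice, and in RBC 29.05 and 6.5. The 2 arms of miR-9 are made from the same 3 hairpins.

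All 10 members were higher in brain than in each other tissue. Each of the 35 brain libraries was above every library of lung, heart, WBC and RBC for each of the 10 miRNAs. Over the 524 miRNAs tested between tissues the same held against all 4 tissues for 30.3%, against lung for 34.9%, against heart for 40.5%, against WBC for 48.3% and against RBC for 54.4%. The sham libraries of the 5 tissues were also compared in a joint limma fit (524 miRNAs; called at an adjusted p under 0.05 and a difference of at least 1.17 on the log2 scale). miR-219a-2-3p and miR-383-5p did not pass the filter on low counts in lung or heart, nor did 5 of the 10 in WBC and RBC. They entered this fit through brain, where they are high, so their calls could not have come out otherwise and are not counted. Of the 8 members that passed in both brain and lung, 8 were called higher in brain, as were 21.1% of the 308 miRNAs that passed in both. Against heart 8 of 8 were called (25.3% of 285 miRNAs), against WBC 5 of 5 (20.9% of 235) and against RBC 5 of 5 (21.1% of 190). The median log2 difference of these members was 9.93 against lung, 8.31 against heart, 7.78 against WBC and 8.27 against RBC, beside medians of -0.96, -0.88, -2.23 and -2.15 over the miRNAs that passed in both tissues. The companions are other miRNAs known from neurons or brain, such as miR-132, miR-153 and miR-218, and of those that passed in both tissues 10 of 11 were called higher in brain than in lung, 12 of 13 than in heart, 4 of 4 than in WBC and 3 of 3 than in RBC. Other scalings moved the median of all 524 miRNAs to as much as 3.83 (against RBC, by library total). For members with counts near 0 in the other tissue, the fitted differences depend on the offset of the log transformation and are no bounds.

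The distance between brain and the other tissues differed by member. miR-219a-2-3p had a median of 5157 RPM in brain, 0.367 RPM in lung and 0.371 RPM in heart, the latter near single counts. miR-338-3p had the smallest log2 difference against lung (3.29, SE 0.22) and heart (3.21, SE 0.22), which were 4.02 and 4.79 with scaling by library total. Its highest lung library (511 RPM) was 3.16 times below its lowest brain library (1614 RPM), and its highest heart library (562 RPM) 2.87 times below. Both miRNAs are known from oligodendrocytes, and in lung the median level was 0.00672% of that in brain for miR-219a-2-3p and 5.60% for miR-338-3p, on the RPM scale. miR-128-3p had the smallest difference against WBC (4.47, SE 0.17), where it reached 5774 RPM in 1 library, and against RBC (5.72, SE 0.16), or 5.67 and 7.28 with scaling by library total.

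**Figure D2:**
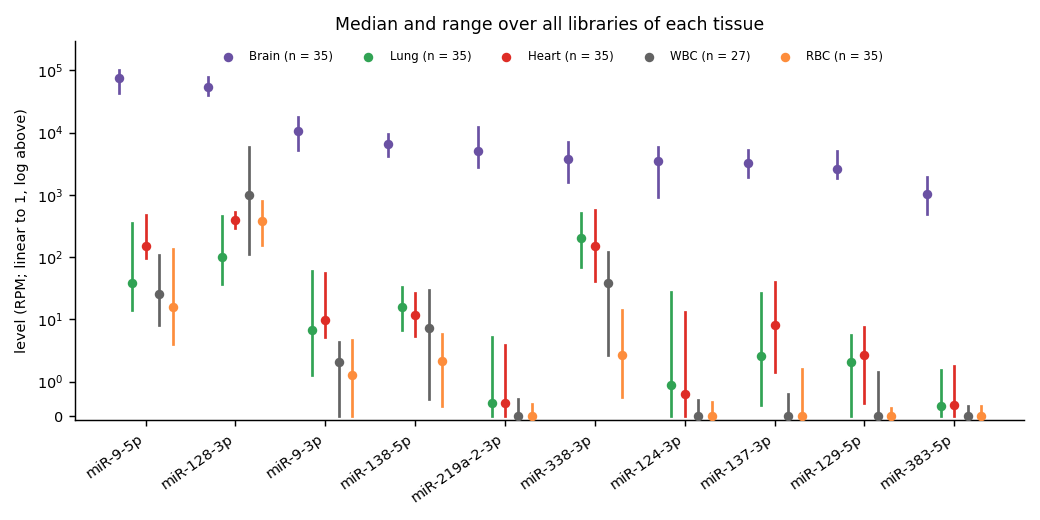
Median (point) and range (bar) of each of the 10 miRNAs over all libraries of brain, lung, heart, WBC and RBC, in RPM on an axis that is linear up to 1 and logarithmic above. Brain lies above the range of each other tissue for each miRNA, miR-338-3p and miR-128-3p come closest, and miR-124-3p, miR-219a-2-3p and miR-383-5p have medians under 1 RPM outside brain.

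Irradiation of the chest was compared with sham irradiation in brain, which lies outside the thorax, in a fit of 4 groups (strain by irradiation) over 433 tested miRNAs. No member was called in C3H, in C57 or for a difference between the strains, and neither was any other miRNA (0% of those tested in each). By limma 0 of 10 members had an unadjusted p under 0.05 in either strain, where 9 of all miRNAs (2.08%) had one in C3H and 53 (12.2%) in C57. edgeR and DESeq2 also called 0 of the 10 in both strains. The members' median log2 change was -0.03 in C3H and 0.02 in C57, beside 0.02 in both over all tested miRNAs. Of the 24 companions 23 were tested, and 0 were called in either strain.

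The values of miR-124-3p show the overlap. Irradiated C3H brains held 2810, 1142, 4799, 3849, 3692, 2590 and 3292 RPM, and the 8 sham C3H brains ran from 2378 to 4424 RPM. The irradiated range covered the sham range, and the log2 change was -0.10 with a 95% confidence interval from -0.81 to 0.60. Irradiated C57 brains held 4313, 4154, 4502, 4548 and, in the single female, 921 RPM, against 1081 to 5927 RPM in sham C57 brains, with a change of 0.01 (-0.69 to 0.72). For the more abundant members the intervals were narrower: miR-9-5p changed by -0.03 in C3H (-0.34 to 0.28) and by 0.02 in C57 (-0.29 to 0.33), and miR-128-3p by 0.01 in both (-0.22 to 0.24 in C3H and -0.22 to 0.25 in C57). The oligodendrocyte miRNA miR-219a-2-3p changed by -0.03 (-0.58 to 0.52) in C3H and by 0.01 (-0.53 to 0.55) in C57, and miR-338-3p by -0.29 (-0.78 to 0.20) and 0.27 (-0.21 to 0.75). The most negative change of the 10 was that of miR-9-3p in C57 (-0.31, adjusted p = 0.541 by limma) and the most positive that of miR-383-5p in C57 (0.33, adjusted p = 0.541). A simulated 4-fold change was recovered for 56 of 56 tested miRNAs in each brain comparison. The simulated counts had the same dispersion for all miRNAs and no difference by sex or strain, so this does not give the power in the real libraries. The intervals above leave room for changes smaller than 4-fold.

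Sham brains differed by sex. In a fit of 6 groups that included sex, C57 males were set against C57 females. No member reached the fold minimum with an adjusted p under 0.05 (all miRNAs: 4.87%), while 5 of 10 had an adjusted p under 0.05 (all miRNAs: 21.3%). The neuronal miR-124-3p was higher in males by 1.07 (SE 0.25, adjusted p = 0.00311), with 3464 to 5927 RPM in the 8 males and 1081 to 3582 RPM in the 7 females. miR-338-3p was higher in males by 0.82 (adjusted p = 0.000898), with 4111 to 6995 RPM in males and 1614 to 4269 RPM in females. miR-137-3p was higher by 0.54 (adjusted p = 0.00643) and miR-9-5p by 0.37 (adjusted p = 0.0223). miR-129-5p was lower in males by 0.78 on the log2 scale (adjusted p = 0.000158), with 1853 to 2415 RPM in males and 2834 to 4602 RPM in females, and the sexes did not overlap. How many other miRNAs separated the sexes in brain was not counted. edgeR and DESeq2 gave the same directions for these 5 and called 0 members at the fold minimum, and the adjusted p of miR-9-5p was then above 0.05 (0.118 by edgeR and 0.123 by DESeq2).

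The differences of miR-124-3p and miR-338-3p were larger under letter B than under letter A, and the gap between the letters was not tested. Among letter B libraries (4 males and 3 females) miR-124-3p differed by 1.91 (adjusted p = 2.39e-06 by limma), miR-338-3p by 1.30 (adjusted p = 3.08e-05) and miR-219a-2-3p by -1.45 (adjusted p = 5.40e-06), and these 3 were called. The 4.87% of all miRNAs given above belongs to the fit of both letters together. Among letter A libraries (4 males and 4 females) miR-124-3p differed by 0.39 (adjusted p = 0.666), miR-338-3p by 0.45 (adjusted p = 0.180), miR-137-3p by 0.33 (adjusted p = 0.431), miR-9-5p by 0.21 (adjusted p = 0.675) and miR-129-5p by -0.57 (adjusted p = 0.180). The signs of the 5 members were the same under both letters, and none of the 5 passed the test under letter A. The female C57 sham values of miR-124-3p were 2973, 3582, 2981 and 1695 RPM under letter A and 1081, 1594 and 1724 RPM under letter B. The last female of letter A and the 3 of letter B were thus low, and their miR-219a-2-3p stood at 6422, 11195, 9163 and 12281 RPM. The irradiated C57 female (letter B) had the same pattern, with 921 RPM of miR-124-3p and 10052 RPM of miR-219a-2-3p, as did C3H irradiated replicate 2 (letter A), with 1142 and 11122 RPM.

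miRNAs of other cell types moved with sex in these brains. Of the miRNAs known from epithelium, all 5 of 5 listed (miR-141-3p, miR-429-3p and the a, b and c members of the miR-200-3p family) were called lower in males, by -3.96 to -4.59, and none was at 0 throughout. Their sum ran from 172 to 2165 RPM (median 300.5) in males and from 352 to 41037 RPM (median 10474) in females. By library the female sums were 5863, 352, 41037 and 35848 RPM under letter A and 20622, 8069 and 10474 RPM under letter B (miR-124-3p in the same order: 2973, 3582, 2981, 1695, 1081, 1594 and 1724 RPM). The irradiated C57 female held 2953 RPM and C3H irradiated replicate 2 held 98 RPM. Of the erythrocyte list 1 of 4 was called, miR-486a-5p (-1.33), while miR-451a differed by 0.11, miR-144-3p by -0.21 and miR-144-5p by -0.39, and the sum ran from 31.5 to 191 RPM in males and from 67.5 to 156 RPM in females. Of the ciliated epithelial list 0 of 5 were called, but miR-34b-5p (0.92) and miR-34c-5p (0.76) each had an adjusted p of 0.000158, miR-34b-3p differed by 0.49, miR-34c-3p by 0.41 and miR-449a-5p by -0.57 (adjusted p = 0.0839), and the sum ran from 1923 to 2329 RPM in males and from 1006 to 1932 RPM in females. The part of these cell types in the members' differences was not tested.

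C3H and C57 females were compared in the same fit, with strain and time after exposure confounded. No member was called (all miRNAs: 3.04%), and 3 of 10 had an adjusted p under 0.05 (all miRNAs: 15%). These were miR-124-3p (0.73 higher in C3H, adjusted p = 0.0448), miR-338-3p (0.53, adjusted p = 0.0351) and miR-137-3p (0.43, adjusted p = 0.0361). With edgeR none of the 3 had an adjusted p under 0.05 (0.119 for miR-124-3p, 0.0575 for miR-338-3p and 0.202 for miR-137-3p). Among letter A libraries the differences were 0.26 (adjusted p = 0.693) for miR-124-3p, 0.09 (adjusted p = 0.771) for miR-338-3p and 0.20 for miR-137-3p. Among letter B libraries miR-124-3p differed by 1.35 (adjusted p = 2.78e-05) and miR-219a-2-3p by -1.35 (adjusted p = 5.84e-06), and these 2 were called. The 3.04% of all miRNAs belongs to the fit of both letters together. Of the epithelial list 1 of 5 was called, miR-200c-3p (-3.41), and the other 4 ran from -2.22 to -2.63. Of the leukocyte list 1 of 5 was called, miR-155-5p (-1.33), while miR-142a-5p differed by 0.53, miR-142a-3p by 0.26, miR-223-3p by 0.26 and miR-150-5p by -0.37. Of the erythrocyte list 2 of 4 were called, miR-144-3p (1.61) and miR-451a (2.01), while miR-144-5p differed by 1.03 and miR-486a-5p by -0.66. Their part in the members' differences was not tested. None of the 23 tested companions was called between the sexes or the strains in brain.

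Across the 35 brain libraries the members moved together in 2 blocks. Correlations were computed on deviations from the 4 group means, on the log2 scale with TMM scaling, with permutation p-values (100000 permutations, two-sided) adjusted over the 45 pairs. Of these, 34 pairs had an adjusted p under 0.05 for Pearson's r, 15 positive and 19 negative. Sex was not among the 4 groups, so differences by sex enter these p-values. miR-124-3p, miR-9-5p, miR-137-3p and miR-338-3p correlated positively with each other, as did miR-128-3p, miR-129-5p, miR-219a-2-3p and miR-383-5p, and pairs between the blocks were negative. The median size of r was 0.658 over the 45 pairs and 0.356 over all 93528 pairs of tested miRNAs, and it was above 0.5 in 68.9% of the former and 32.1% of the latter. The libraries share their denominators, so that a rise of abundant miRNAs lowers the others in RPM. The signs of the 34 pairs held in 34 of 34 under quantile normalisation, under scaling by library total, in sham libraries alone, within letter A, within letter B and within C3H, in 33 among C57 sham females and in 27 among C57 sham males. In these males miR-124-3p did not go with its block (r = 0.03 with miR-9-5p, -0.22 with miR-137-3p and -0.01 with miR-338-3p). The other pairs of that block ran from 0.86 to 0.94 there. With deviations from 6 group means that include sex (34 libraries, as the single irradiated female had no group), the signs held in 34 of 34, but r fell from 0.70 to 0.33 for miR-124-3p with miR-137-3p and from 0.78 to 0.50 for miR-124-3p with miR-338-3p.

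The strongest pairs joined miRNAs of different cell types as well as of the same. The oligodendrocyte miR-338-3p went with the neuronal miR-137-3p (r = 0.89, rho = 0.82, adjusted p = 2.8e-05 by permutation, r = 0.82 without the 2 farthest libraries, and 0.77 over the 6 group means). miR-124-3p went against miR-129-5p, both known from neurons (r = -0.87, rho = -0.80, adjusted p = 2.8e-05 by permutation, r = -0.83 without the 2 farthest, and -0.75 over the 6 group means). miR-219a-2-3p went with miR-383-5p (r = 0.87, rho = 0.82, adjusted p = 2.8e-05 by permutation, r = 0.82 without the 2 farthest). The 2 oligodendrocyte miRNAs went against each other (r = -0.66, rho = -0.49, adjusted p = 0.000126 by permutation, r = -0.60 without the 2 farthest), with r = -0.36 within letter A and -0.84 within letter B, and r = 0.09 among the 8 C57 sham males. The arms of miR-9 had r = 0.58 (rho = 0.55, adjusted p = 0.000483 by permutation, r = 0.55 without the 2 farthest), with r = 0.31 in sham libraries, and r = -0.17 among the 7 C57 sham females against 0.60 among the 8 males.

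**Figure D3:**
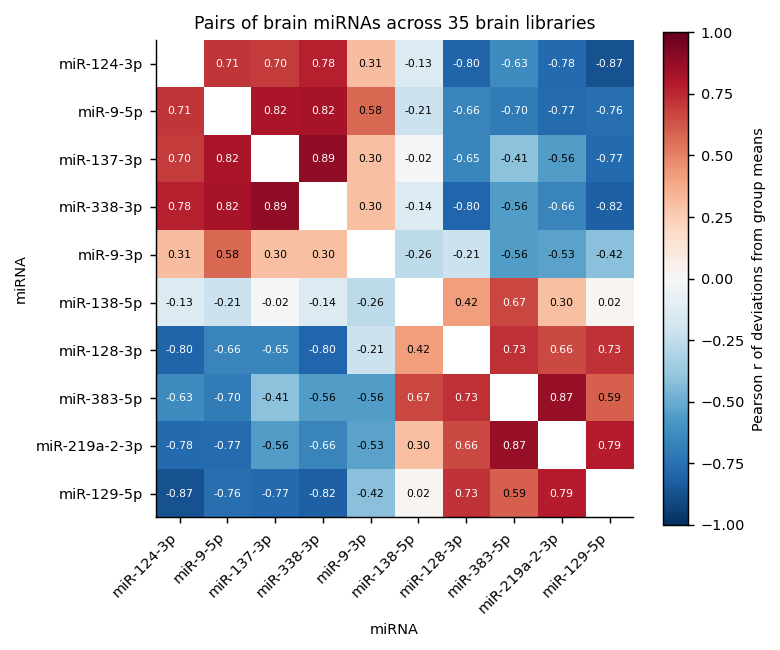
Pearson's r of each pair of the 10 miRNAs over the deviations of the 35 brain libraries from their group means, from negative to positive on a colour scale. The positive block of miR-124-3p, miR-9-5p, miR-137-3p and miR-338-3p and that of miR-128-3p, miR-129-5p, miR-219a-2-3p and miR-383-5p are set against each other, from r = 0.89 (miR-137-3p with miR-338-3p) to r = -0.87 (miR-124-3p with miR-129-5p).

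Among the 423 other tested miRNAs, the nearest to each member by Pearson's r over the same 35 libraries were as follows. For miR-124-3p they were miR-34b-5p of the ciliated epithelial list (r = 0.93, and 0.82 over the 6 group means) and miR-384-3p (r = 0.91). For miR-9-5p they were miR-126a-5p, an endothelial miRNA (r = 0.87), and miR-384-3p (r = 0.87), and for miR-9-3p miR-376b-5p (r = 0.79) and miR-384-5p (r = 0.73). miR-300-3p (r = 0.92) and miR-377-3p (r = 0.86) were nearest to miR-137-3p, and miR-341-3p (r = 0.91) and miR-219a-5p (r = 0.91) to miR-338-3p. miR-219a-2-3p was nearest to miR-151-3p (r = 0.95) and miR-770-3p (r = 0.94), and miR-383-5p to miR-221-5p (r = 0.94) and miR-874-3p (r = 0.93). For miR-128-3p the nearest were miR-31-5p (r = 0.85) and miR-409-3p (r = 0.85), for miR-129-5p miR-669c-5p (r = 0.91) and miR-30c-2-3p (r = 0.86), and for miR-138-5p miR-221-3p (r = 0.80) and miR-146b-5p (r = 0.78).

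Outside brain the levels of the members differed widely. miR-338-3p, miR-128-3p and miR-9-5p were counted in each lung and heart library, with medians of 205, 101 and 38.3 RPM in lung and 150.4, 399 and 149 RPM in heart. miR-138-5p (15.9 and 11.8 RPM), miR-9-3p (6.74 and 9.77 RPM), miR-137-3p (2.61 and 8.08 RPM) and miR-129-5p (2.04 and 2.72 RPM) were traces, and miR-124-3p (0.891 and 0.645 RPM), miR-219a-2-3p and miR-383-5p lay near the level of single counts. Heart and lung differed for part of them: in the joint sham fit 5 of the 8 members that had passed the filter in lung and heart were called higher in heart. Of all 524 miRNAs in that fit 16.4% were called higher in heart, and some of these 524 had entered only through other tissues. These were miR-9-5p (3.19 lower in lung, SE 0.23), miR-128-3p (3.16, SE 0.20), miR-137-3p (2.35, SE 0.31), miR-9-3p (1.43, SE 0.29) and miR-129-5p (1.17, SE 0.27), all on the log2 scale. With scaling by library total, the scale of the RPM above, the differences were smaller, at -2.36 for miR-9-5p, -2.21 for miR-128-3p and -1.72 for miR-137-3p, which stayed called, and at -0.85 for miR-9-3p and -0.77 for miR-129-5p, which did not. The direction for miR-338-3p and miR-138-5p depended on the scaling. miR-338-3p differed by -0.08 (95% confidence interval -0.54 to 0.38), and by 0.77, higher in lung, by library total. miR-138-5p differed by -0.34 (-0.69 to 0.01), and by 0.15 by library total. Of the companions, miR-135a-5p (-3.87), both arms of miR-384 (-2.38 for the 5p arm and -2.08 for the 3p arm), miR-874-3p (-1.55), miR-323-3p (-1.42) and both arms of miR-212 (-1.25 for the 3p arm and -1.20 for the 5p arm) were called higher in heart. Of these, miR-323-3p and miR-384-3p had passed the filter of the fits by irradiation in neither tissue. miR-384-5p and miR-212-3p had passed it in heart but not in lung, so the calls of these companions are not counted. miR-708-5p (2.09) and miR-7a-5p (1.52) were called higher in lung.

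In lung, miR-129-5p was higher after WTLI in both strains. Irradiated C3H lungs held 5.70, 4.77, 5.00, 3.16, 3.39, 3.77 and 5.35 RPM of miR-129-5p, and sham C3H lungs 1.58, 1.30, 2.44, 1.45, 1.53, 1.09, 0 and 1.5 RPM. Each irradiated library was above each sham library, and how many other miRNAs separated in this way was not counted. The log2 change was 1.32 (SE 0.34, adjusted p = 0.00330 by limma), and it was the only call among the 8 members tested. Of all 350 tested miRNAs 34 were called in either direction, and 6.29% were called higher. The highest count behind these levels of miR-129-5p was 22 reads. Without the sham library at 0 (replicate 7) the change was 1.00 (adjusted p = 0.0105), under the fold minimum. Within letter A it was 1.39 (adjusted p = 0.0297) and within letter B 1.19 (adjusted p = 0.0808). Irradiated C57 lungs held 2.02, 5.35, 4.20, 4.11 and 3.71 RPM against 0.300 to 2.66 RPM in sham C57 lungs, and 4 of 5 were above all 15 sham libraries. The change was 1.23 (SE 0.31, adjusted p = 0.00598), which was called. In fits of C57 males alone, of 1 strain at a time and with a stricter filter, miR-129-5p did not pass the filter on low counts and was not tested. Leaving out irradiated replicate 2 (1.12), sham replicate 8 (1.15) or sham replicate 15 (1.14) took it below the fold minimum. Within letter A, with 2 irradiated mice, it was 1.01 (adjusted p = 0.283), and within letter B 1.56.

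miR-338-3p was lower in irradiated C3H lung. The irradiated libraries ran from 68.6 to 235 RPM and the sham libraries from 194 to 299.8 RPM, and 6 of 7 irradiated libraries were below all 8 sham libraries. The log2 change was -1.11 (SE 0.22, adjusted p = 0.000215 by limma), just under the fold minimum of 1.17 (33.4% of all tested miRNAs had an adjusted p under 0.05). Without sham replicate 4 or irradiated replicate 5 it was -1.21 or -1.24 and was called. In C57 lung it changed by -0.44 (adjusted p = 0.153). The 2 heart muscle miRNAs miR-208a-3p (-1.42) and miR-499-5p (-1.46) were also lower in irradiated C3H lung, 2 of a list of 4 whose sum ran from 2569 to 5226 RPM in irradiated and from 4759 to 7515 RPM in sham lungs, while miR-1a-3p changed by -0.60 and miR-133a-3p by -0.87. Of the ciliated epithelial list 1 of 5 was called, miR-449a-5p (1.51), while miR-34b-3p changed by -0.40, miR-34b-5p by -0.25, miR-34c-5p by -0.03 and miR-34c-3p by 0.30. The part of these cells in the result was not tested.

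In C57 lung 2 more members were called, miR-137-3p (1.34, SE 0.40, adjusted p = 0.0185 by limma) and miR-9-5p (1.33, SE 0.44, adjusted p = 0.0326), so that 3 of 8 members were called higher where 3.71% of all tested miRNAs were. The irradiated group held 4 males and 1 female and the sham group 8 males and 7 females, and in C57 males alone 0 of the 7 members tested were called. A fit of 1 strain at a time also called 0 of 7, and a stricter filter on low counts called 1. The 5 irradiated lungs, replicates 1 to 5, held 49.2, 33.9, 184, 356 and 58.3 RPM of miR-9-5p and 9.22, 2.67, 12.9, 27.0 and 7.64 RPM of miR-137-3p. Replicates 3 and 4, both male and of letter B, were the highest for both. The same 2 lungs stood out for miR-124-3p (0.674, 0.891, 12.6, 27.2 and 2.40 RPM) and miR-9-3p (6.74, 7.13, 32.5, 59.3 and 6.98 RPM), which did not pass the test (1.89, adjusted p = 0.0549, and 1.31, adjusted p = 0.0588). Both were called by edgeR (2.76, adjusted p = 0.00297, and 1.59, adjusted p = 0.0163), by DESeq2 and by limma with TMM or library-total scaling. Without replicate 4 miR-9-5p changed by 0.84 (adjusted p = 0.171) and miR-137-3p by 0.97 (adjusted p = 0.0917), and miR-129-5p was then the only call. Without replicate 3 miR-9-5p changed by 1.12 (adjusted p = 0.111). Without both they changed by 0.40 and 0.70. Within letter A, 2 irradiated against 8 sham mice, miR-9-5p changed by 0.06 and miR-137-3p by 0.10, and within letter B by 2.24 and 2.32.

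**Figure D4:**
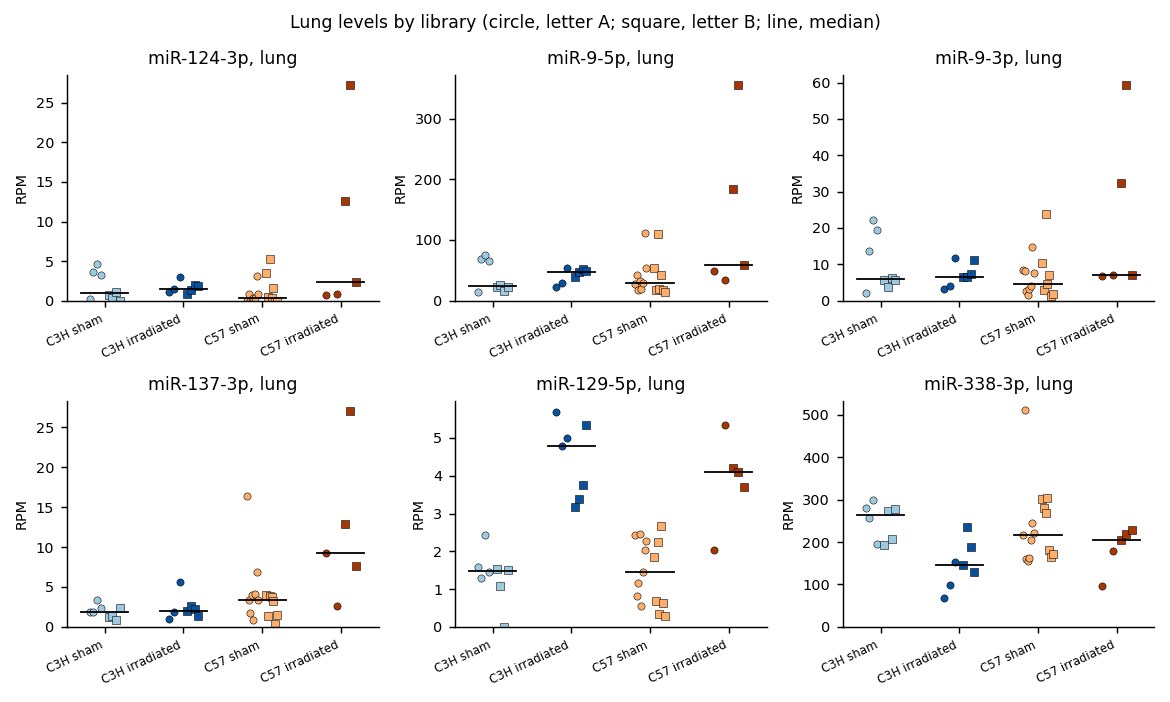
Levels of miR-124-3p, miR-9-5p, miR-9-3p, miR-137-3p, miR-129-5p and miR-338-3p in the 35 lung libraries by strain and irradiation, in RPM, with circles for letter A, squares for letter B and lines for medians. miR-129-5p is higher in irradiated lungs of both strains, miR-338-3p is lower in irradiated C3H lungs, and 2 irradiated C57 lungs hold the high values of miR-124-3p and both arms of miR-9.

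The strains did not pass a test of difference in lung. By limma the interaction of strain and irradiation called 0 of 8 members (all miRNAs: 0.286%), with 5 of 8 at an unadjusted p under 0.05 (all miRNAs: 13.4%), and edgeR and DESeq2 also called 0. The largest was that of miR-124-3p (-2.25, adjusted p = 0.353), followed by miR-9-3p (-1.87, adjusted p = 0.307). The members' median change was -0.26 in C3H and 1.27 in C57 lung, beside -0.08 and -0.05 over all tested miRNAs. Of the 11 companions tested, 1 was called in both strains, miR-7b-5p, which rose by 4.55 in C3H and by 4.78 in C57. miR-7b-5p differs little in sequence from miR-7a-5p, so that their reads may be shared. The neuroendocrine list (miR-375-3p, miR-7a-5p and miR-7b-5p), of which miR-7b-5p was called, summed to 887 to 1765 RPM in irradiated against 417 to 779 RPM in sham C57 lungs and to 501 to 853 against 326 to 455 RPM in C3H lungs. miR-375-3p itself changed by -0.62 in C57 (adjusted p = 0.0200 by limma) and by -0.33 in C3H lungs, and miR-7a-5p by 0.53 and 0.33. The part of this list in the members' changes was not tested.

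Sham lungs were compared by strain and sex, and for some members the differences were poorly determined. Between the strains miR-124-3p differed by 0.94 (SE 1.02), miR-219a-2-3p by 0.96 (SE 0.86) and miR-9-3p by 0.68 (SE 0.56), all higher in C3H. Between the sexes miR-124-3p differed by 0.18 (SE 1.10). For these members the absence of a call leaves room for differences above the fold minimum. No member was called between the strains (all miRNAs: 5.54%) and 1 had an adjusted p under 0.05 (all miRNAs: 14.4%), miR-138-5p, which was 0.94 lower in C3H on the log2 scale (SE 0.21, adjusted p = 0.00122), with 6.63 to 11.3 RPM in C3H and 13.6 to 23.2 RPM in C57 females, without overlap. How many other miRNAs separated the strains in lung was not counted. No member was called between the sexes (all miRNAs: 2.27%), with 1 of 9 at an unadjusted p under 0.05 (all miRNAs: 28.7%), miR-338-3p (0.48 higher in males, adjusted p = 0.121). Of the 13 companions tested, miR-212-3p (1.25), miR-7b-5p (-1.52) and miR-708-5p (-1.37) were called between the strains. Of the cardiac muscle list 2 of 4 were called higher in C3H, miR-499-5p (3.06) and miR-133a-3p (1.20), while miR-208a-3p differed by 1.12 and miR-1a-3p by 0.55. Of the ciliated epithelial list 0 of 5 were called, with differences from -0.96 to -1.17, all 5 at an adjusted p under 0.05, and the sum ran from 3408 to 5242 RPM in C3H and from 7657 to 12104 RPM in C57 females, without overlap. The part of these cell types in the difference of miR-138-5p was not tested.

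In irradiated C3H heart miR-129-5p was again called. The irradiated hearts held 2.69, 6.51, 7.44, 4.72, 5.13, 3.91 and 2.72 RPM and the sham hearts 0.924, 3.27, 2.55, 1.49, 2.55, 1.47, 4.62 and 1.08 RPM, so that the groups overlapped and 4 of 7 irradiated hearts were above all sham hearts. The log2 change was 1.35 (SE 0.44, adjusted p = 0.0269 by limma), 1 call of 8 members tested. Of all 312 tested miRNAs 21 were called in either direction, and 4.81% were called higher. The call of miR-129-5p was lost without irradiated replicate 3, the library with little heart muscle miRNA (1.11, adjusted p = 0.0875), and without sham replicate 1 (1.18, adjusted p = 0.0710), 3 (1.29, adjusted p = 0.0550) or 4 (1.26, adjusted p = 0.0626). Scaling by library total (1.09, adjusted p = 0.0406), a looser and a stricter filter on low counts and a fit of 1 strain at a time each called 0 members. Within letter A the change was 2.18 (adjusted p = 0.0409) and within letter B 0.66 (adjusted p = 0.629). All 4 of 4 tested miRNAs of the ciliated epithelial list were higher in irradiated C3H heart, by 1.89 to 2.80, with a sum of 184 to 724 RPM against 61.9 to 200.2 RPM in sham hearts, and 1 of 5 leukocyte miRNAs (miR-150-5p, -1.63, the others from -0.65 to 0.11) and 1 of 4 erythrocyte miRNAs (miR-451a, -1.33, the others from -1.40 to 0.16) were called lower. Their part in the change of miR-129-5p was not tested.

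In C57 heart no member was called (all miRNAs: 0.962%), with 2 of 8 at an unadjusted p under 0.05 by limma (all miRNAs: 14.1%), and edgeR and DESeq2 also called 0. These were miR-9-5p (0.65, SE 0.20, adjusted p = 0.0560) and miR-124-3p (1.52, SE 0.67, adjusted p = 0.222). miR-129-5p changed by 0.46 (95% confidence interval -0.42 to 1.34). The interaction with strain called 0 of 8 members (all miRNAs: 0%), with 4 of 8 at an unadjusted p under 0.05 (all miRNAs: 16.3%) and 0 calls of members by edgeR and DESeq2. It was -0.99 for miR-9-5p (adjusted p = 0.0641). None of the 13 tested companions was called in either strain.

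The heart levels of 3 members differed by sex in sham C57 mice. miR-338-3p was higher in males by 1.51 (adjusted p = 0.000803 by limma), miR-137-3p was higher by 1.18 (adjusted p = 0.0174), and miR-129-5p was lower by 1.55 on the log2 scale (adjusted p = 0.00326). These were 3 calls of 9 members tested (all miRNAs: 10.1%), with the same signs as in brain. Males held 154 to 325 RPM of miR-338-3p (median 191) and females 41.2 to 70.4 RPM (median 52.8), and miR-137-3p ran from 6.91 to 13.5 RPM in males and from 1.41 to 6.20 RPM in females. Neither overlapped, while miR-129-5p overlapped, with 0.384 to 2.91 RPM in males and 1.69 to 7.08 RPM in females. How many other miRNAs separated the sexes in heart was not counted. Within letter B all 3 were called (1.79 for miR-338-3p, 1.18 for miR-137-3p and -1.88 for miR-129-5p), and the 10.1% of all miRNAs belongs to the fit of both letters together. Within letter A none was, with differences of 1.19 (adjusted p = 0.0749), 1.09 (adjusted p = 0.227) and -1.22 (adjusted p = 0.196). With edgeR miR-137-3p fell just below the fold minimum (1.12, adjusted p = 0.0238). The single irradiated C57 female held 150.5 RPM of miR-338-3p, above all 7 sham females. Of the cardiac muscle list 1 of 4 was called, miR-208a-3p (2.51 higher in males), while miR-133a-3p differed by 0.42 and miR-499-5p by 0.46. The value of miR-1a-3p was 0, which quantile normalisation gives to a miRNA of equal rank in each library, and is no measured equality. Of the erythrocyte list 2 of 4 were called higher, miR-144-3p (1.8) and miR-451a (1.20), while miR-486a-5p differed by -0.78 and miR-144-5p by -0.08. Of the ciliated epithelial list 1 of 5 was called, miR-34c-3p (-1.38), while miR-34b-5p differed by 0.31, miR-34b-3p by -0.42, miR-34c-5p by -0.56 and miR-449a-5p by -0.77. Of the leukocyte list 0 of 5 were called, but its sum ran from 1672 to 2603 RPM in males and from 986 to 1592 RPM in females, without overlap. In it miR-223-3p differed by 0.92 (adjusted p = 0.00616), miR-142a-5p by 0.75, miR-142a-3p by 0.58, miR-150-5p by 0.08 and miR-155-5p by -0.47. A mesenchyme list of 5 summed to 43914 to 60126.5 RPM in males and to 36273 to 44262 RPM in females, with overlap. The companion miR-7b-5p was lower (-1.25). Their part was not tested.

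Sham C3H hearts differed from those of C57 females in the same 3 members. miR-137-3p was higher in C3H by 1.39 (adjusted p = 0.00681 by limma), miR-338-3p by 1.33 (adjusted p = 0.00164), and miR-129-5p was lower by 1.23 on the log2 scale (adjusted p = 0.0128), 3 calls of 9 (all miRNAs: 11.4%). Here the difference was larger under letter A. miR-338-3p stood at 273 to 562 RPM in the 4 C3H sham hearts of letter A and at 71.6 to 86.4 RPM in the 4 of letter B, a separation not counted over all miRNAs. Within letter A the differences were 2.22 for miR-338-3p, 2.04 for miR-137-3p and -1.98 for miR-129-5p, all called, and within letter B 0.40, 0.65 and -0.66, none called. The 11.4% of all miRNAs belongs to the fit of both letters together. The call of miR-129-5p was lost with edgeR (-0.98, adjusted p = 0.0430) and with scaling by library total (-0.65, adjusted p = 0.128). Irradiated C3H hearts held 291, 142 and 43.9 RPM of miR-338-3p under letter A and 65.0 to 90.7 RPM under letter B. The companions miR-135a-5p (-3.86) and miR-153-3p (1.56) were called. Of the erythrocyte list 2 of 4 were called higher in C3H, miR-144-3p (1.88) and miR-451a (1.99), while miR-486a-5p differed by -1.05 and miR-144-5p by 0.70. Of the cardiac muscle list 1 of 4 was called, miR-208a-3p (1.73), while miR-499-5p differed by 1.04 (adjusted p = 0.000373) and miR-133a-3p by 0.12. The value of miR-1a-3p was again the 0 set by quantile normalisation. Of the epithelial list 1 of 5 was called, miR-141-3p (1.35), while the other 4 ran from -0.17 to 0.11. Of the leukocyte list 0 of 5 were called (-0.46 to 1.02), and of the ciliated epithelial list 0 of 5 (-1.004 to 0.72). Their part was not tested.

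**Figure D5:**
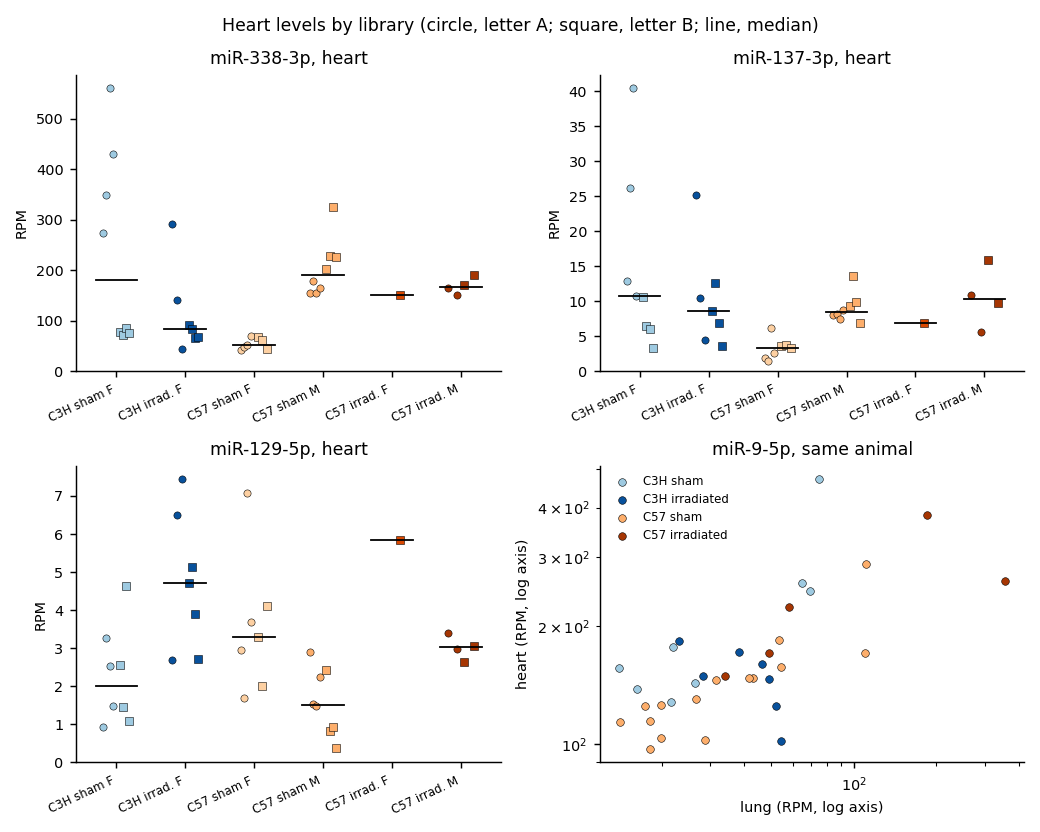
Levels of miR-338-3p, miR-137-3p and miR-129-5p in the heart libraries by strain, sex and irradiation (circles for letter A, squares for letter B, lines for medians, in RPM), and miR-9-5p in lung against heart of the same animal on log axes. C57 sham males lie above females for miR-338-3p and miR-137-3p, C3H hearts of letter A hold the highest miR-338-3p (up to 562 RPM), and miR-9-5p rises in heart with its level in lung.

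Lung and heart of the same mouse were compared over the 35 animals, as deviations from the 4 group means, a comparison added after the lung and heart values had been seen. miR-9-5p correlated between lung and heart (r = 0.77, rho = 0.81, adjusted p = 0.0001 for both by permutation, the smallest the 100000 permutations and 10 tests allow). Without the 2 farthest animals r was 0.82, and it was 0.84 within letter A and 0.71 within letter B. miR-9-3p (r = 0.58, rho = 0.58, adjusted p = 0.00095 and 0.00205 by permutation, r = 0.69 without the 2 farthest), miR-124-3p (r = 0.56, rho = 0.54, adjusted p = 0.00217 and 0.00222 by permutation, r = 0.67 without the 2 farthest) and miR-219a-2-3p (r = 0.46, rho = 0.55, adjusted p = 0.0147 and 0.00222 by permutation, r = 0.48 without the 2 farthest) also passed, and the other 6 did not. The levels of miR-219a-2-3p lay near single counts in both tissues, and it had not passed the filter there. Among the 290 miRNAs that passed the filter in both tissues, miR-9-5p had the highest r, miR-9-3p the 3rd and miR-124-3p the 5th, the median r was 0.084, and 9 (3.10%) had r over 0.5. The libraries of 1 animal may share a dissection or preparation, which the labels do not give. Between lung and brain 0 of 10 members passed (smallest unadjusted p = 0.0253, for miR-338-3p by rho, permutation test). Between heart and brain 1 of 10 passed, miR-129-5p (r = 0.56, rho = 0.54, adjusted p = 0.0053 and 0.0115 by permutation, r = 0.52 without the 2 farthest, 0.41 within letter A and 0.69 within letter B). Sex was not among the 4 groups, and miR-129-5p was lower in C57 sham males in both tissues (-0.78 in brain and -1.55 in heart). The part of sex in this r was not tested.

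In the blood cell fractions 5 members passed the filter on low counts, miR-128-3p, miR-9-5p, miR-9-3p, miR-138-5p and miR-338-3p, and none of the 5 was called after WTLI in either strain or fraction (all miRNAs: 0%). By limma 2 of the 5 had an unadjusted p under 0.05 in C3H WBC, 0 in C57 WBC, 0 in C3H RBC and 2 in C57 RBC, beside 6.87%, 4.12%, 18.8% and 6.11% of all tested miRNAs. The 2 in C3H WBC were miR-338-3p (-1.19, adjusted p = 0.311) and miR-9-3p (1.21, adjusted p = 0.311). miR-128-3p, which is also known from blood-forming cells, was the most abundant of the 10, with a median of 1007 RPM in WBC (110.4 to 5774) and 377 RPM in RBC (157 to 799). miR-9-5p had medians of 25.9 RPM in WBC and 16 RPM in RBC. In sham RBC it ran from 31 to 126 RPM in C3H and from 4.06 to 22.1 RPM in C57, without overlap. This difference was not tested in this fraction, and how many other miRNAs separated the strains there was not counted. miR-338-3p stood at 38.0 RPM in WBC and 2.68 RPM in RBC. The other 5 had a median of 0 in both fractions. The highest count of miR-124-3p was 2 reads in WBC and 1 read in RBC, and miR-383-5p reached 1 read in both.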

How the data were processed

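Small RNA libraries of brain, lung, heart, WBC and RBC were made by the authors from total RNA, sequenced, trimmed and aligned to miRNAs of the mm10 build (per the submitters' processing notes), and runs with few miRNA reads were rejected. The deposited tables hold raw counts per mature miRNA without normalisation (1915 miRNAs, 167 libraries, 35 animals, 0 unmatched columns). How reads shared by several miRNAs were assigned, and whether molecular identifiers were used, was not given in the sources used here. RPM are counts per library total times 1000000.

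As in the study's methods, quantile normalisation and voom were used with limma 3.58.1 (R 4.3.3), here after a filter on low counts (filterByExpr of edgeR 4.0.16, count minimum 10, total minimum 15) that was added, with 4 groups per tissue (strain by irradiation), 6 groups with sex for sham comparisons, or 10 groups for sham tissues jointly. Adjusted p-values are two-sided and Benjamini-Hochberg over all miRNAs tested. Called means an adjusted p under 0.05 and at least 2.25-fold (log2 1.17). Groups, letters and replicate numbers came from the sample labels, and replicates were separate animals. Every pair of libraries within a group differed by more than sampling noise (smallest chi-square per degree of freedom 15.5). Correlations used TMM log2 CPM (prior count 2), computed with scipy 1.17.1. Alternatives were edgeR, DESeq2 1.42.0, other scalings and filters, sex or letter terms, subsets and leaving out each library. On simulated 4-fold (log2 2) changes the main fit called 56 of 56 tested miRNAs in brain, 45 of 45 in lung and 35 of 37 (94.6%) in heart, with 0 unchanged miRNAs called. The simulation set the same dispersion for all miRNAs and no difference by sex or strain. All members and the 24 companions are named, together with other arms, the 2 nearest miRNAs by correlation and companions that were called. Members and lists were chosen with earlier results of these data known. The plasma samples of the study were not analysed here.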

Additional observations from a re-analysis of the deposited data

Results flagged for a closer look

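Of 108 groups of 4 to 10 libraries examined for 1 library far from the rest, 13 were marked, where chance marks about 1 in 20. In brain the single irradiated C57 female, replicate 5, stood apart from the 4 irradiated males with the lowest miR-124-3p (921 RPM) and the highest miR-128-3p (69758 RPM), miR-129-5p (4088 RPM) and miR-219a-2-3p (10052 RPM) of its group. C3H irradiated replicate 2 stood apart in brain with 5132 RPM of miR-129-5p and 11122 RPM of miR-219a-2-3p. In lung, C3H sham replicate 4 held 457 RPM of miR-128-3p, and C3H irradiated replicate 3 held 5.59 RPM of miR-137-3p. In heart, C57 irradiated replicate 5 held 5.84 RPM of miR-129-5p, C3H irradiated replicate 1 held 25.2 RPM of miR-137-3p and 291.0 RPM of miR-338-3p, and C3H sham replicate 3 held 54.6 RPM of miR-9-3p and 472 RPM of miR-9-5p.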

How the results depend on the processing

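In brain 0 of 10 members were called after WTLI in either strain under each alternative tried, and 10 of 10 were higher in brain than in each other tissue, of which 8 (lung and heart) and 5 (WBC and RBC) had passed the filter there. For C3H lung (1 call) there were 2 calls with no fold minimum, 0 with the strict filter, 2 in letter A and 0 in letter B, and 0 to 2 when each library was left out in turn. For C57 lung (3 calls) edgeR, DESeq2, TMM and library-total scaling gave 5, the strict filter 1, C57 males alone 0, letter A 0, letter B 5, a fit of 1 strain at a time 0, and leaving out irradiated replicates 3 and 4 together 1. Leaving out each library in turn gave 1 to 5 (5 without irradiated replicate 1, sham replicate 7 or sham replicate 11, and 1 without irradiated replicate 4). For C3H heart (1 call) library-total scaling, the loose filter, the strict filter, letter B and 1 strain at a time each gave 0, and leaving out each library 0 to 1. C57 heart (0 calls) gave 1 in males alone (miR-9-3p, 1.33, adjusted p = 0.0418 by limma). With no fold minimum the sham comparisons called 3 members between strains and 5 between sexes in brain, and 1 between strains in lung. Letter B alone called 2 between strains and 3 between sexes in brain and 0 between strains in heart, and letter A alone called 0 between sexes in heart. Library-total scaling called 3 members higher in heart than in lung. It moved the median change of all tested miRNAs from -0.08 to 0.27 in C3H lung, from -0.05 to 0.12 in C57 lung and from -0.03 to -0.17 in C3H heart, and in C3H lung miR-129-5p was then 1.90 and miR-338-3p -0.84. The cause of these differences was not tested.

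For 3 uncalled differences the sign turned with both values larger than their SE: miR-219a-2-3p between strains in brain was 0.29 in letter A (main -0.46), miR-138-5p between strains in brain was -0.25 in letter B (main 0.15), and miR-9-5p between sexes in heart was 0.22 in letter B (main -0.26). Of the other values of single members, 2092 kept their side of the threshold, 28 passed it newly and 35 no longer passed, and when each library was left out 3624 kept their side, 16 passed newly and 11 no longer passed. The sign turned for 0 of the 509 and 0 of the 175 values of called members, and for 176 of 1649 and 127 of 3476 of uncalled ones, the 3 above included. The 509 include the large differences between brain and the other tissues, where the sign of members that entered through brain could not turn. They therefore say little about the calls in lung and heart. With the animal as a replicate block in the joint fit, the members that had passed the filter in both tissues were again called higher in brain. These were 8 against lung and heart and 5 against WBC and RBC, and the calls of the others could not have come out otherwise. Between lung and heart there were again 5 calls (consensus correlation 0.0210), and the block changed no other call. Irradiated and sham mice were different animals, so no block by animal could be fitted there. A term for the letter changed no call of a member in these comparisons. Depth limits miR-124-3p, miR-219a-2-3p and miR-383-5p outside brain, whose medians lay at or under 4 counts.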
